A study of Homo sapiens with 12 samples.

Results

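Integrins and tetraspanins, 2 families of surface proteins, were followed in 2 human T-cell acute lymphoblastic leukaemia lines with and without chidamide, an inhibitor of histone deacetylases. The members were the genes whose symbol in the deposited table is an integrin alpha-chain name, an integrin beta-chain name or TSPAN with a number. This rule, which uses no measured value, found 47 of the 25146 genes of the table: 18 alpha chains, 7 beta chains and 22 tetraspanins. In all, 4 groups of 3 RNA sequencing libraries were compared: Jurkat with chidamide, untreated Jurkat, Molt-4 with chidamide and untreated Molt-4. Libraries carry the letters J and M, read here as Jurkat and Molt-4, established lines from patients with this leukaemia and the lines that the growth protocol names. Chidamide was given at 2 µM, for 48 h by the treatment protocol. Labels give the treated libraries hours that rise by replicate number, 48, 49 and 50, so that exposure time is confounded with the number. No source names separate cultures for the replicates, so p-values measure the spread between these libraries, which may be technical.

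An integrin is a pair of an alpha and a beta chain that spans the cell membrane and links ligands outside, such as fibronectin, laminin, collagen or the surface proteins VCAM1 and ICAM1, to talin and the actin skeleton inside. The alpha chain largely sets which ligand is bound, and each beta chain pairs with a limited set of alpha chains. In T cells the pair of ITGAL with ITGB2 (the integrin LFA-1) and the pair of ITGA4 with ITGB1 (VLA-4) are known for arrest on vessel walls and for contact with other cells. Tetraspanins cross the membrane several times and gather integrins, immunoglobulin-family proteins and proteases into membrane domains. The subgroup called TspanC8 (TSPAN5, TSPAN10, TSPAN14, TSPAN15, TSPAN17 and TSPAN33) binds the protease ADAM10 and guides its maturation and its choice of substrate.

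Levels are the deposited FPKM, fragments per transcript length and sequenced fragments, which are per length and so can be set side by side between genes. Values of single libraries are given in the order of replicates 1, 2 and 3. Changes are differences of log2(FPKM + 1) ± SE between group means, which understates the change of genes with low FPKM, and a call is an adjusted p under 0.05 in limma over the 13840 genes that had 1 FPKM or more in at least 3 libraries. FPKM hold no read counts, so counting error cannot be given and the depth behind each value is unknown. Libraries summed to between 698435 and 869059 FPKM and had 11643 to 13228 genes at 1 FPKM or more. The RNAs of the signal recognition particle (RN7SL1 and RN7SL2) took 10.1% of the sum in untreated Molt-4 replicate 3 and 2.25% to 5.35% in the other libraries, and untreated Jurkat replicate 3 lay farther from its group than any other library. Of 10 T-cell markers, all averaged 1 FPKM or more in treated and untreated Jurkat and in treated Molt-4, and 9 did so in untreated Molt-4, the exception being CD28. With chidamide 2 of the 10 rose and 7 fell in Jurkat (median log2 change -0.78) and 4 rose and 5 fell in Molt-4 (median -0.03). Over all genes tested, 30.9% rose and 25.4% fell in Jurkat, and 35.4% and 24.6% in Molt-4. The sum of the 10 markers was 1387 to 1442 FPKM in treated and 2294 to 2344 FPKM in untreated Jurkat. In Molt-4 it was 766 to 792 FPKM in treated and 979.7 to 1054 FPKM in untreated libraries. Molt-4 libraries also held markers of other cell types: 5 erythroid genes summed to 884 to 904 FPKM in treated and 529 to 548 FPKM in untreated Molt-4, and 5 epithelial genes to 277 to 284 FPKM in treated and 108 to 114 FPKM in untreated Molt-4. In Jurkat the erythroid sum was 3.58 to 56.9 FPKM with chidamide and 0 to 0.92 FPKM without, and the epithelial sum stayed at or under 1.88 FPKM. The sum of 5 fibroblast genes was 36.95 to 46.9 FPKM in treated and 0.52 to 1.99 FPKM in untreated Jurkat, and 34.5 to 41.8 FPKM in treated and 0.23 to 1.25 FPKM in untreated Molt-4, with most of it in COL1A1 and both DCN and LUM at 0 in every Jurkat library. The sum of 5 endothelial genes was 39.5 to 45.5 FPKM in treated and 75.6 to 84.4 FPKM in untreated Jurkat, and 29.3 to 32 FPKM in treated and 15.7 to 20.8 FPKM in untreated Molt-4. Nearly all of it was PECAM1, and CDH5, KDR and TEK were at 0 in every untreated library of both lines. For 4 B-cell genes the sum was 11.7 to 12.8 FPKM in treated and 24.9 to 29.8 FPKM in untreated Jurkat, and 18.6 to 23.3 FPKM in treated and 3.65 to 5.72 FPKM in untreated Molt-4. Of these, CD79A averaged 11.6 ± 0.431 FPKM in treated and 27.4 ± 2.55 FPKM in untreated Jurkat, and 13.3 ± 1.31 FPKM in treated and 2.85 ± 0.406 FPKM in untreated Molt-4 (SD, n = 3 each), and MS4A1 was at 0 in all Molt-4 libraries. The part of these marker shifts in the members' changes was not tested. In bulk RNA, fewer cells that carry a transcript and less of it per cell cannot be told apart. Of the members, 38 passed the filter (15 alpha chains, 6 beta chains and 17 tetraspanins). For 5 of these, ITGA1, ITGAM, ITGAX, ITGB5 and TSPAN12, only treated libraries reached 1 FPKM.

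Before treatment, the same few members stood highest in both lines. ITGA4, the alpha chain that binds VCAM1 and fibronectin, was the highest integrin at 186, 185 and 176 FPKM in untreated Molt-4, against 151, 155 and 187 FPKM in untreated Jurkat. TSPAN7, known as a surface antigen of T-cell leukaemia, was the highest tetraspanin, with 77.2, 72.9 and 71.6 FPKM in untreated Molt-4 and 200.0, 189 and 196 FPKM in untreated Jurkat. TSPAN3 and TSPAN14 followed it in both lines: TSPAN3 averaged 65.9 ± 6.23 FPKM in untreated Molt-4 and 57.2 ± 6.56 FPKM in untreated Jurkat, and TSPAN14 49.8 ± 1.65 and 39.9 ± 2.49 FPKM (SD, n = 3 each). Among integrins, ITGB1 followed ITGA4 in untreated Molt-4 at 60.7, 73.6 and 64.2 FPKM and ITGB2 was the third. In untreated Jurkat ITGB2 (74.4 ± 10.1 FPKM), ITGAE (66.9 ± 9.33 FPKM) and ITGB1 (59.8 ± 5.31 FPKM; SD, n = 3 each) came next, and neighbours in that order differed by less than their spread.

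Of the 38 members, 10 were higher and 18 lower in untreated Molt-4 than in untreated Jurkat (4 and 9 of 21 integrins, 6 and 9 of 17 tetraspanins), where 27.9% of all genes tested were higher and 37.5% lower. The median difference was -0.24 over the members and -0.07 over all genes. The alpha chain of LFA-1, ITGAL, measured 4.53, 3.96 and 4.77 FPKM in untreated Molt-4, against 41.1, 44.5 and 50.9 FPKM in untreated Jurkat (log2 difference -3.10 ± 0.099, adjusted p = 6.3e-11). TSPAN15, a partner of ADAM10, was at 1.44, 0.61 and 0.82 FPKM in untreated Molt-4, against 20.7, 20.3 and 19 FPKM in untreated Jurkat (log2 difference -3.44 ± 0.14, adjusted p = 4.14e-10). These were the largest differences among the integrins and the tetraspanins. Also lower in Molt-4 were ITGA3 (-2.79), TSPAN4 (-1.5), TSPAN2 (-1.41), TSPAN7 (-1.39), TSPAN33 (-1.29), TSPAN9 (-1.18), ITGAE (-1.12), ITGB3 (-1.61) and ITGB2 (-0.81). Among the 10 higher genes, TSPAN32, described in blood cells, had 2.99, 2.75 and 2.1 FPKM in untreated Molt-4 and 0.04, 0.43 and 0.12 FPKM in untreated Jurkat, a log2 difference of 1.60. TSPAN31 (0.95), TSPAN17 (0.83), ITGA9 (0.79) and ITGA6 (0.64) were higher too, and ITGA6 had 0.64 with all libraries and 0.41 without untreated Jurkat replicate 1; its call was lost within the groups compared alone (0.0599, range over all alternatives 0.000606 to 0.0599). ITGB1, ITGA4 and TSPAN3 did not pass the test (adjusted p = 0.129, 0.0721 and 0.084), but each did once 1 untreated Jurkat library was left out: replicate 3 for ITGB1 (0.0236) and ITGA4 (0.000367), and replicate 2 for TSPAN3 (0.0181). Their adjusted p ranged over all alternatives from 0.0106 to 0.478, from 0.000367 to 0.329 and from 0.0148 to 0.296. The call of ITGA5 (-0.28) was lost without treated Jurkat replicate 1 or 2 or 3 or untreated Jurkat replicate 1 or 3 or treated Molt-4 replicate 1 or untreated Molt-4 replicate 1 or 2 (0.054 to 0.17; range over all alternatives 0.0141 to 0.179), that of ITGAX (0.46) without untreated Jurkat replicate 1 or 2 or 3 or untreated Molt-4 replicate 2 or 3 (0.0629 to 0.134; range over all alternatives 0.000324 to 0.142), that of ITGA2B (0.78) without untreated Jurkat replicate 2 or 3 or untreated Molt-4 replicate 1 or 2 (0.0539 to 0.134; range over all alternatives 0.0162 to 0.134), that of TSPAN5 (-0.21) without untreated Jurkat replicate 2 or 3 or untreated Molt-4 replicate 2 or 3 (0.0579 to 0.117; range over all alternatives 0.0172 to 0.267), and that of TSPAN1 (-0.83) without untreated Jurkat replicate 2 (0.0807, range over all alternatives 0.00146 to 0.0807); without untreated Jurkat replicate 3 the difference of ITGA5 was -0.16.

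With chidamide, integrin and tetraspanin transcripts rose far more often than they fell, in both lines. In Jurkat 26 of the 38 members were higher and 3 lower (14 and 2 integrins, 12 and 1 tetraspanins), against 30.9% of all genes higher and 25.4% lower. In Molt-4 31 were higher and 1 lower (18 and 0 integrins, 13 and 1 tetraspanins), against 35.4% and 24.6% of all genes. The median log2 change was 0.64 over the members and 0.04 over all genes in Jurkat, and 1.18 and 0.08 in Molt-4. Since 5 members passed the filter only through treated libraries, the same was counted with no filter, where 45 members could be tested: 26 were higher and 3 lower in Jurkat, and 33 higher and 1 lower in Molt-4. Of the 20104 genes tested that way, 25.1% were higher and 17.1% lower in Jurkat, and 30.5% and 16.7% in Molt-4. Both lines shared 24 risers (14 integrins and 10 tetraspanins), where 21.7% of all genes were higher in both, and no member was lower in both (16.2% of all genes). Another 7 members were called higher in Molt-4 alone and TSPAN14 in Jurkat alone, TSPAN17 rose in Jurkat and fell in Molt-4, and ITGAV and TSPAN32 passed in neither.

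The log2 change was more positive in Molt-4 than in Jurkat for 30 of the 38 members (78.9%) and for 53.8% of all genes tested. The difference itself was called for 22 members. It was more positive in Molt-4 for 18, among them ITGB2 and ITGAE, which were lower with chidamide in Jurkat, and in Jurkat for 4 (ITGB1, TSPAN13, TSPAN14 and TSPAN17), where 19.8% and 12.1% of all genes were called. The lines share no libraries, and over the 38 members their log2 changes had a Pearson correlation of 0.70 and a Spearman correlation of 0.67, given as a description. The splits of all genes depend on the scaling: 4903 higher and 3401 lower in Molt-4 became 3540 and 5039 with quantile normalization, which moved the median of all genes to -0.10. For the difference of responses, 2745 and 1671 became 2271 and 2678 with quantile normalization (median -0.07, against 0.04 before) and 2273 and 2202 on scaling to totals free of 7SL RNA. Among low members the size of a change depends on the scale. A pseudocount of 0.1 enlarged the change by over 1.5 times for 8 called members in Jurkat and 12 in Molt-4, and quantile normalization shrank it as much for 10 and 9. TSPAN18, for example, changed by 1.08 in Jurkat and by 3.25 with the smaller pseudocount.

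**Figure D1:**
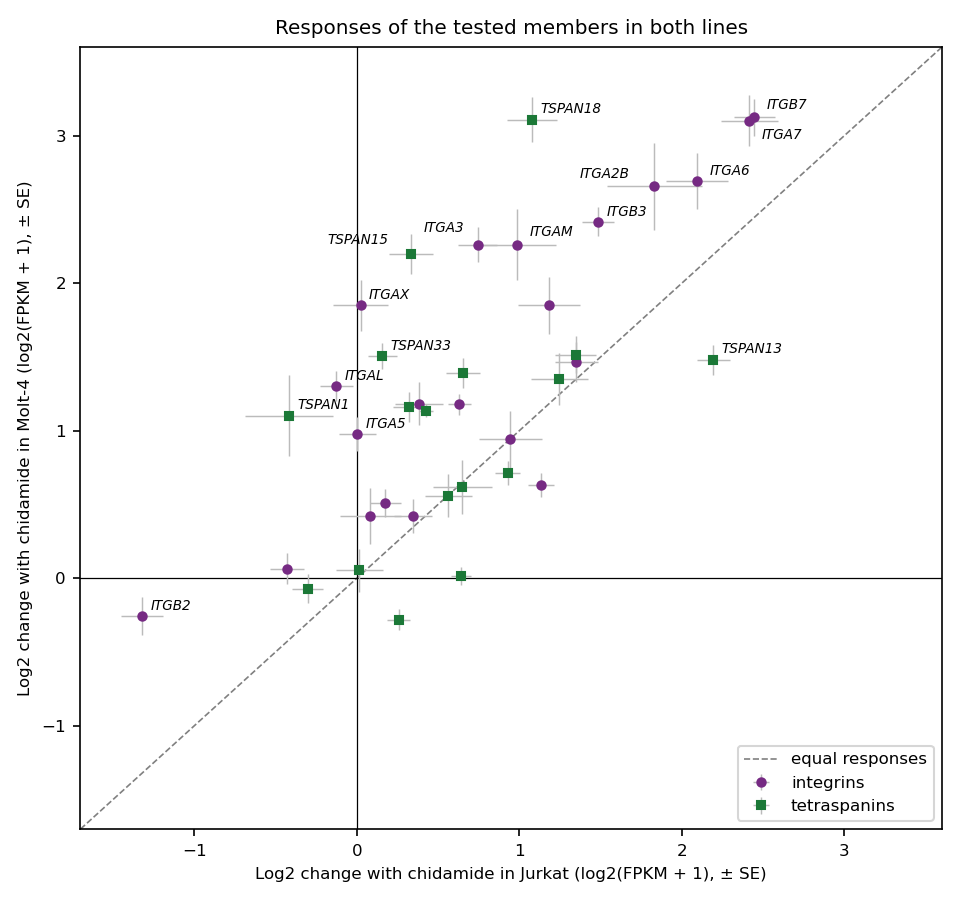
Log2 change with chidamide in Jurkat (x axis) and in Molt-4 (y axis) of the 38 tested members, on the log2(FPKM + 1) scale, with bars of ± SE; circles are integrins, squares tetraspanins, and the dashed line marks equal responses. Most points lie above 0 on both axes and 30 lie above the line; ITGB2 at -1.32 in Jurkat stands apart on the left.

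Sequences before the transcription start are shown for 5 members, chosen after their values were seen from those with a single listed start. They are the 2 integrins and 2 tetraspanins of these, called higher in both lines, whose smaller rise of the 2 lines was largest, and ITGAE, which fell in Jurkat. They are the 250 bases upstream, 5′ to 3′, from RefSeq's table for GRCh38.p14, which held 33 of the 47 members. The bases just after the listed start lay in a transcript of the GENCODE annotation for the other genes shown, but not for ITGA2B. The start used for ITGA2B thus lacks this second source. Capitals mark the letters GGGCGG or CCAAT on either strand, the GC box and CCAAT box by name.
ITGB7 (chr12:53207252-53207501, minus strand): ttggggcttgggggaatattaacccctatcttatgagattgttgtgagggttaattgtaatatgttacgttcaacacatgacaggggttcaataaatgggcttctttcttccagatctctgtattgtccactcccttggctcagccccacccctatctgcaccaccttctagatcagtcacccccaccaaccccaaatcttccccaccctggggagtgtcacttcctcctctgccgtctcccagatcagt
ITGA2B (chr17:44389650-44389899, minus strand): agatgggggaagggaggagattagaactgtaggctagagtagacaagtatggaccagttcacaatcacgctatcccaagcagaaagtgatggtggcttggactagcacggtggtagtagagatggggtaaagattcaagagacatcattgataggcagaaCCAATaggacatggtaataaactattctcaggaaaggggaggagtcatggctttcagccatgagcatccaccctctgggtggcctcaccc
TSPAN13 (chr7:16753505-16753754, plus strand): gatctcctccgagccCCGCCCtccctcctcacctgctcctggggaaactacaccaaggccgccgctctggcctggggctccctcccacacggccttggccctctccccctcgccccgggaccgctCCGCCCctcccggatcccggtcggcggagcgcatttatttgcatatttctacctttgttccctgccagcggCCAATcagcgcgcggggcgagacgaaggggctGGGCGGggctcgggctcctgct
TSPAN2 (chr1:115089504-115089753, minus strand): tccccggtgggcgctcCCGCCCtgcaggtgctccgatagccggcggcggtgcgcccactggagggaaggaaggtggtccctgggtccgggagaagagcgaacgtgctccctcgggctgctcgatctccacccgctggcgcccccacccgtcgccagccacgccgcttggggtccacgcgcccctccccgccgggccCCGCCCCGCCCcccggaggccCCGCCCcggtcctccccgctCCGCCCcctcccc
ITGAE (chr17:3801189-3801438, minus strand): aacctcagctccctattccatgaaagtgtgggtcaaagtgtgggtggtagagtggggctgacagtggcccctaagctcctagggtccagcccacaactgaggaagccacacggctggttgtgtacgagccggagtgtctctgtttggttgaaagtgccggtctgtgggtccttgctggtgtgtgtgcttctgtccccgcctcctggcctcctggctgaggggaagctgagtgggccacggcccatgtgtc
The 5 stretches differ in make-up. Bases G and C form 79.2% of the TSPAN2 stretch, which holds 5 GC boxes, and 70% of that of TSPAN13, which holds 3 and a CCAAT box. They form 49.6% of the ITGB7 stretch, in which none of these motifs was found, 48.8% of that of ITGA2B, with 1 CCAAT box, and 60% of that of ITGAE, with neither. In windows from 250 bases before to 50 after the start, GGGCGG stood in 18 of the 33 members (54.5%) and in 44.6% of all 27305 promoters of the table, and CCAAT in 10 members (30.3%) and 35.7% of all. TATAAA was found in 1 member window (3.03%, against 12% of all) and TGANTCA, with N any base, in 2 (6.06%, against 7.76%). Both strands were searched, and these matches are a description of letters, not of bound sites.

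The beta chains, which limit which integrins a cell can build, differed in the line of their larger shift. For ITGB2 and ITGB1 it was Jurkat, and for ITGB3 and ITGB7 it was Molt-4. ITGB2, the beta chain of leukocyte integrins such as LFA-1, had 29, 28.2 and 30 FPKM in treated Jurkat, against 75.1, 84.2 and 64 FPKM in untreated Jurkat. All treated libraries were under all untreated ones (log2 change -1.32 ± 0.13, adjusted p = 3.6e-06), the largest fall of any member. In Molt-4 it measured 30.1, 32.7 and 42.7 FPKM in treated Molt-4, against 36.6, 43.7 and 45.4 FPKM in untreated Molt-4. Those groups overlapped and the change was not called (-0.25 ± 0.13, adjusted p = 0.109), but it was called at -0.40 without treated Molt-4 replicate 3, the highest treated library (0.0135, range over all alternatives 0.0135 to 0.36). The difference between the lines was 1.06 ± 0.18 (adjusted p = 0.000901). ITGB2 overlaps the antisense gene ITGB2-AS1, and as the use of strand is not stated, reads of the 2 cannot be told apart.

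ITGB1, the beta chain shared by the laminin, collagen and fibronectin receptors, showed the opposite course, with 129, 137 and 130.1 FPKM in treated Jurkat, against 56.8, 56.6 and 65.9 FPKM in untreated Jurkat (log2 change 1.13 ± 0.078). In Molt-4 it had 101, 109 and 99.2 FPKM in treated Molt-4, against 60.7, 73.6 and 64.2 FPKM in untreated Molt-4 (log2 change 0.63 ± 0.078). Treated libraries stood above untreated ones in both lines (adjusted p = 2.01e-07 in Jurkat and 2.27e-05 in Molt-4). The rise of ITGB1 was larger in Jurkat (difference -0.50 ± 0.11, adjusted p = 0.00467). The ratio of ITGB1 to ITGB2 was 4.45, 4.85 and 4.34 in treated Jurkat, against 0.756, 0.672 and 1.03 in untreated Jurkat. In Molt-4 it was 3.34, 3.32 and 2.32 with chidamide and 1.66, 1.68 and 1.41 without. The ratios of treated and untreated libraries did not overlap in either line.

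ITGB7, which pairs with ITGA4 in a receptor known for homing of lymphocytes to the gut and with ITGAE in a receptor for E-cadherin, had 1 of the largest rises of any member in both lines. It measured 13.5, 14.6 and 15.5 FPKM in treated Jurkat, against 2.34, 1.6 and 1.67 FPKM in untreated Jurkat (log2 change 2.45 ± 0.13, adjusted p = 1.88e-08). In Molt-4 it measured 29.5, 27.4 and 23 FPKM in treated Molt-4, against 2.55, 2.09 and 1.87 FPKM in untreated Molt-4 (log2 change 3.12 ± 0.13, adjusted p = 1.64e-09). No treated library overlapped an untreated one, and the rise was larger in Molt-4 (difference 0.68 ± 0.18, adjusted p = 0.0133), a call lost with a pseudocount of 0.1 (0.0549, range over all alternatives 0.00436 to 0.0549). As a share of the summed FPKM of the beta chains, ITGB7 was 7.21, 7.58 and 8.12% in treated and 1.7, 1.09 and 1.23% in untreated Jurkat, and 17, 15.1 and 13.1% in treated and 2.53, 1.73 and 1.66% in untreated Molt-4. ITGB7 overlaps ZNF740 on the genome.

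ITGB3, the partner of ITGAV and ITGA2B, had 9.14, 9.6 and 10.3 FPKM in treated Jurkat, against 2.58, 3.08 and 2.8 FPKM in untreated Jurkat (log2 change 1.48 ± 0.099). In Molt-4 the values were 6.23, 5.32 and 5.44 FPKM in treated Molt-4, against 0.15, 0.26 and 0.34 FPKM in untreated Molt-4 (log2 change 2.41 ± 0.099). The groups were separate in both lines and the gene was called in both (adjusted p = 1.4e-07 and 1.64e-09). ITGB5, a further partner of ITGAV, had 2.29, 1.39 and 2.36 FPKM in treated Jurkat, against 0.12, 0.33 and 0.51 FPKM in untreated Jurkat, and 5.77, 4.68 and 3.06 FPKM in treated Molt-4, against 0.6, 0.39 and 0.5 FPKM in untreated Molt-4. Only treated libraries passed 1 FPKM (log2 change 1.18 in Jurkat and 1.85 in Molt-4), and the difference between lines was called without treated Molt-4 replicate 3 (0.0204, adjusted p = 0.0822 with all libraries, range over all alternatives 0.0204 to 0.511). ITGB4, which pairs with ITGA6 where epithelial cells anchor to laminin, stayed low, with means of 3.29 ± 1.02 and 1.2 ± 0.166 FPKM in treated and untreated Jurkat and 2.11 ± 0.354 and 0.643 ± 0.409 FPKM in treated and untreated Molt-4 (SD, n = 3 each). Its rise of 0.94 in each line was lost with quantile normalization (0.0806 in Jurkat and 0.253 in Molt-4; range over all alternatives 0.000645 to 0.0806 and 0.000435 to 0.253). ITGB8 is listed at 0 in all 12 libraries. ITGB6 was not analysed here.

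**Figure D2:**
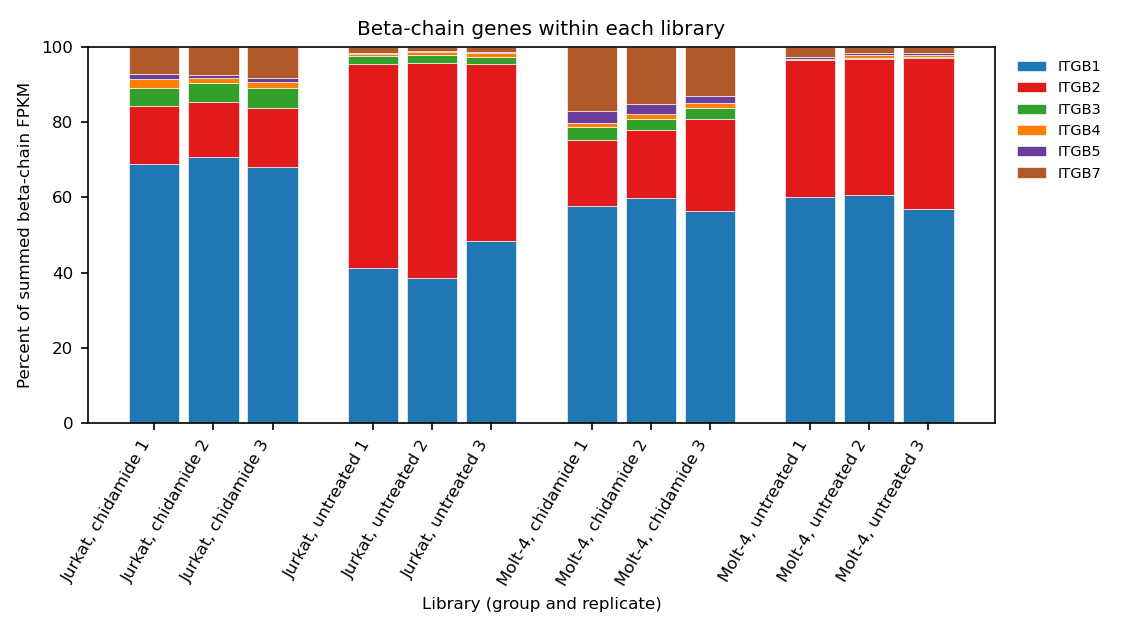
Share of each integrin beta chain in the summed FPKM of the 7 beta chains (y axis, percent) in each library (x axis), treated before untreated within each line; ITGB8, at 0, is not drawn. ITGB2 takes 14.6% to 15.7% in treated Jurkat and 47.0% to 57.3% in untreated Jurkat, and ITGB7 widens with chidamide in both lines.

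Of the laminin-binding alpha chains ITGA3, ITGA6 and ITGA7, all rose in both lines. ITGA7, known from skeletal muscle, had 17.9, 19.7 and 23.7 FPKM in treated Jurkat, against 2.46, 2.84 and 3.79 FPKM in untreated Jurkat (log2 change 2.41 ± 0.17, adjusted p = 2.72e-07). In Molt-4 this gene had 17, 16.6 and 17.6 FPKM in treated Molt-4, against 0.63, 1.67 and 1.14 FPKM in untreated Molt-4 (log2 change 3.10 ± 0.17, adjusted p = 2.24e-08). Each treated library exceeded each untreated library several times over. The difference between the lines was 0.69 with adjusted p = 0.0508, which passed on leaving out treated Jurkat replicate 3 (0.0398), untreated Jurkat replicate 1 (0.0371) or untreated Molt-4 replicate 2 (0.0143) (range over all alternatives 0.0143 to 0.116). ITGA7 overlaps BLOC1S1.

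ITGA6, which pairs with ITGB1 or ITGB4, had 34.2, 28.3 and 34.4 FPKM in treated Jurkat, against 4.65, 6.87 and 9.57 FPKM in untreated Jurkat (log2 change 2.09 ± 0.19). Molt-4 libraries held 76.6, 74.9 and 81.2 FPKM in treated Molt-4, against 12.3, 8.94 and 12.5 FPKM in untreated Molt-4 (log2 change 2.69 ± 0.19). Both rises were called (adjusted p = 1.87e-06 and 1.68e-07), with no overlap between groups, and the difference between them was called without untreated Jurkat replicate 1 (0.0119, against 0.112 with all libraries; range over all alternatives 0.0119 to 0.237). ITGA3, whose product binds laminin with ITGB1 beside the tetraspanin CD151, had 17.2, 18.9 and 14.7 FPKM in treated Jurkat, against 9.2, 8.91 and 10.9 FPKM in untreated Jurkat (log2 change 0.74 ± 0.12). In Molt-4, where it began under 1 FPKM, it had 6.19, 6.82 and 6.08 FPKM in treated Molt-4, against 0.43, 0.44 and 0.76 FPKM in untreated Molt-4 (log2 change 2.26 ± 0.12). The groups were separate in each line, and the Molt-4 response was larger by 1.52 ± 0.17 (adjusted p = 3.68e-05).

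The collagen-binding chains stayed low throughout. ITGA1 had 2.91, 2.33 and 2.57 FPKM in treated Jurkat, against 0.43, 0.36 and 0.44 FPKM in untreated Jurkat, and 2.56, 3.29 and 1.9 FPKM in treated Molt-4, against 0.39, 0.23 and 0.23 FPKM in untreated Molt-4. Only treated libraries reached 1 FPKM, and the log2 changes of 1.35 ± 0.13 in Jurkat and 1.47 ± 0.13 in Molt-4 were both called (adjusted p = 3.57e-06 and 1.51e-06); the gene overlaps PELO. ITGA2 changed by 0.51 in Molt-4 (adjusted p = 0.00056) but by -0.20 with quantile normalization, and in Jurkat by 0.18 (adjusted p = 0.136, called without untreated Jurkat replicate 3 at 0.049998, just under the threshold, and at -0.32 with quantile normalization; range over all alternatives 0.00737 to 0.415). ITGA10 changed by 0.35 in Jurkat and 0.42 in Molt-4, and both were called. Quantile normalization turned them to -0.14 and -0.30, and the Molt-4 fall was itself called (0.0421, range over all alternatives 0.00143 to 0.0421). The Jurkat call also went with a pseudocount of 0.1 (0.0642), without treated Jurkat replicate 2 (0.0586) or 3 (0.0739) or untreated Jurkat replicate 2 (0.0648, range over all alternatives 0.0054 to 0.321). ITGA11 reached at most 0.66 FPKM and was not tested.

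ITGA4, the highest integrin in every group, rose further, to 247, 260.3 and 254 FPKM in treated Jurkat, against 151, 155 and 187 FPKM in untreated Jurkat (log2 change 0.63 ± 0.071, adjusted p = 1.16e-05). In Molt-4 it had 431, 413 and 399 FPKM in treated Molt-4, against 186, 185 and 176 FPKM in untreated Molt-4 (log2 change 1.18 ± 0.071, adjusted p = 4.27e-08). Treated libraries lay above untreated ones in both lines and the response was larger in Molt-4 (0.55 ± 0.1, adjusted p = 0.00138); ITGA4 overlaps CERKL. Its relative ITGA9, which binds VCAM1 and tenascin, was low, with 0.54, 0.28 and 0.66 FPKM in treated Jurkat, against 0.01, 0.45 and 0.01 FPKM in untreated Jurkat, and 3.57, 3.6 and 3.29 FPKM in treated Molt-4, against 1.07, 1.03 and 0.83 FPKM in untreated Molt-4. The Molt-4 groups were separate (log2 change 1.18 ± 0.15, adjusted p = 2.21e-05), while the Jurkat groups overlapped. The Jurkat change of 0.38 (adjusted p = 0.0421) kept its call on leaving out treated or untreated Jurkat replicate 2 or untreated Molt-4 replicate 3 and lost it on leaving out any other library (0.0509 to 0.153), and quantile normalization turned it to -0.04 (range over all alternatives 0.00318 to 0.845). The responses differed by 0.80 (adjusted p = 0.0112), but by 0.14 and without a call with a pseudocount of 0.1 (0.9, range over all alternatives 0.00802 to 0.9).

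Among the chains that recognise the sequence Arg-Gly-Asp in fibronectin, vitronectin or fibrinogen, ITGA2B changed most. ITGA2B, which with ITGB3 forms the fibrinogen receptor of platelets, had 4.41, 7.03 and 11.4 FPKM in treated Jurkat, against 1.86, 0.72 and 1.44 FPKM in untreated Jurkat (log2 change 1.83 ± 0.29, adjusted p = 0.000213). In Molt-4 the values were 17.4, 27.2 and 28.4 FPKM in treated Molt-4, against 3.94, 2.65 and 2.37 FPKM in untreated Molt-4 (log2 change 2.66 ± 0.29, adjusted p = 8.91e-06). Treated libraries exceeded untreated ones in both lines but spread widely, from 4.41 to 11.4 FPKM in treated Jurkat. The difference between lines (0.83, adjusted p = 0.157) was called without treated Jurkat replicate 3 (0.042; range over all alternatives 0.042 to 0.462). Of 7 other megakaryocyte and platelet markers, summed FPKM was 9.46 to 10.1 in treated and 4.76 to 5.69 in untreated Jurkat, and 13.6 to 17.2 in treated and 27.8 to 31.7 in untreated Molt-4. Of 4 such markers tested, 2 rose and 0 fell in Jurkat, and 1 rose and 2 fell in Molt-4. Over all genes tested, 30.9% rose and 25.4% fell in Jurkat, and 35.4% and 24.6% in Molt-4. GP1BB averaged 8.79 FPKM in treated and 21.3 FPKM in untreated Molt-4, and TUBB1 3 and 5.5 FPKM. GP1BA averaged 2.13 and 1.26 FPKM in these groups, and 4.24 and 1.12 FPKM in treated and untreated Jurkat. GP9 was listed at 0 in every library and PF4 in every Molt-4 library. The part of such cells in the change of ITGA2B and ITGB3 was not tested. ITGA5, the fibronectin receptor chain, had a log2 change of 0.98 ± 0.11 in Molt-4 (adjusted p = 1.18e-05), with means of 32.2 ± 3.84 FPKM with chidamide and 15.8 ± 1.3 FPKM without (SD, n = 3 each). In Jurkat it measured 19.5 ± 0.187 and 19.6 ± 3.21 FPKM in treated and untreated libraries (adjusted p = 0.993), and the difference of responses was 0.97 ± 0.16 (adjusted p = 0.000614). ITGAV passed in neither line, with 4.41 to 9.23 FPKM over all 12 libraries. In Molt-4 (0.42, adjusted p = 0.072) it had 6.51, 6.49 and 6.09 FPKM in treated and 4.64, 4.41 and 4.43 FPKM in untreated libraries, without overlap. That change was called in a fit of Molt-4 libraries only (0.00304). It was also called without treated Jurkat replicate 3 (0.036) or untreated Jurkat replicate 2 (0.0265, range over all alternatives 0.00304 to 0.919). ITGA8 is listed at 0 in all libraries.

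The leukocyte alpha chains behaved differently in the lines. ITGAL, the LFA-1 chain, had 12.7, 12.4 and 12 FPKM in treated Molt-4, against 4.53, 3.96 and 4.77 FPKM in untreated Molt-4 (log2 change 1.30 ± 0.099, adjusted p = 3.37e-07). In Jurkat it had 47.3, 38.7 and 38.9 FPKM in treated Jurkat, against 41.1, 44.5 and 50.9 FPKM in untreated Jurkat, which overlapped (-0.13, adjusted p = 0.307). The difference between the lines was 1.43 ± 0.14 (adjusted p = 1.29e-05). ITGAE, the chain of the E-cadherin receptor, showed 51.5, 50.1 and 45.8 FPKM in treated Jurkat, against 70.6, 73.8 and 56.3 FPKM in untreated Jurkat, with no overlap (log2 change -0.43 ± 0.11, adjusted p = 0.0043). In Molt-4 it showed 29, 30.4 and 35.1 FPKM in treated Molt-4, against 28.1, 29.1 and 33 FPKM in untreated Molt-4, which overlapped (0.06, adjusted p = 0.622). The difference of responses (0.49, adjusted p = 0.0254) lost its call on leaving out treated Jurkat replicate 3, untreated Jurkat replicate 1 or 2, treated Molt-4 replicate 3 or untreated Molt-4 replicate 1 or 2 (0.0551 to 0.0665; range over all alternatives 0.00266 to 0.0665). ITGAE overlaps P2RX5.

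ITGAM and ITGAX, neighbours on chromosome 16 whose products pair with ITGB2 on myeloid cells, rose in Molt-4. ITGAM had 3.96, 4.93 and 5.89 FPKM in treated Molt-4, against 0.28, 0.24 and 0.16 FPKM in untreated Molt-4 (log2 change 2.26 ± 0.24, adjusted p = 6.78e-06). In Jurkat the values were 2.12, 1.52 and 0.4 FPKM in treated Jurkat, against 0.03, 0.02 and 0.35 FPKM in untreated Jurkat (log2 change 0.99 ± 0.24, adjusted p = 0.0042). The groups did not overlap, although treated Jurkat replicate 3 lay close to untreated replicate 3. ITGAX had 3.2, 5.72 and 3.39 FPKM in treated Molt-4, against 0.15, 0.66 and 0.39 FPKM in untreated Molt-4 (log2 change 1.85 ± 0.17, adjusted p = 1.87e-06), and at most 0.03 FPKM in any Jurkat library. The difference between lines was 1.28 for ITGAM (adjusted p = 0.014) and 1.82 for ITGAX (adjusted p = 0.000139). The Jurkat call of ITGAM was lost with quantile normalization (0.0801, range over all alternatives 8.46e-05 to 0.0801) and its difference with a pseudocount of 0.1 (0.266, range over all alternatives 0.00422 to 0.266). Beside these, 7 myeloid markers summed to 85.5 to 86.3 FPKM in treated and 11.1 to 11.7 FPKM in untreated Molt-4, and to 2.80 to 5.83 and 1.21 to 2.88 FPKM in treated and untreated Jurkat. Of the treated Molt-4 sum, LYZ held 62.9 ± 0.906 FPKM and CD33 20.9 ± 0.429 FPKM, against 0.677 ± 0.251 and 10.3 ± 0.92 FPKM in untreated Molt-4 (SD, n = 3 each). FCGR1A was at 0 in all Jurkat libraries, and S100A8 and S100A9 in untreated Molt-4. The part of such cells in the change was not tested. ITGAD, the next gene on the chromosome, reached at most 0.22 FPKM and was not tested.

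**Figure D3:**
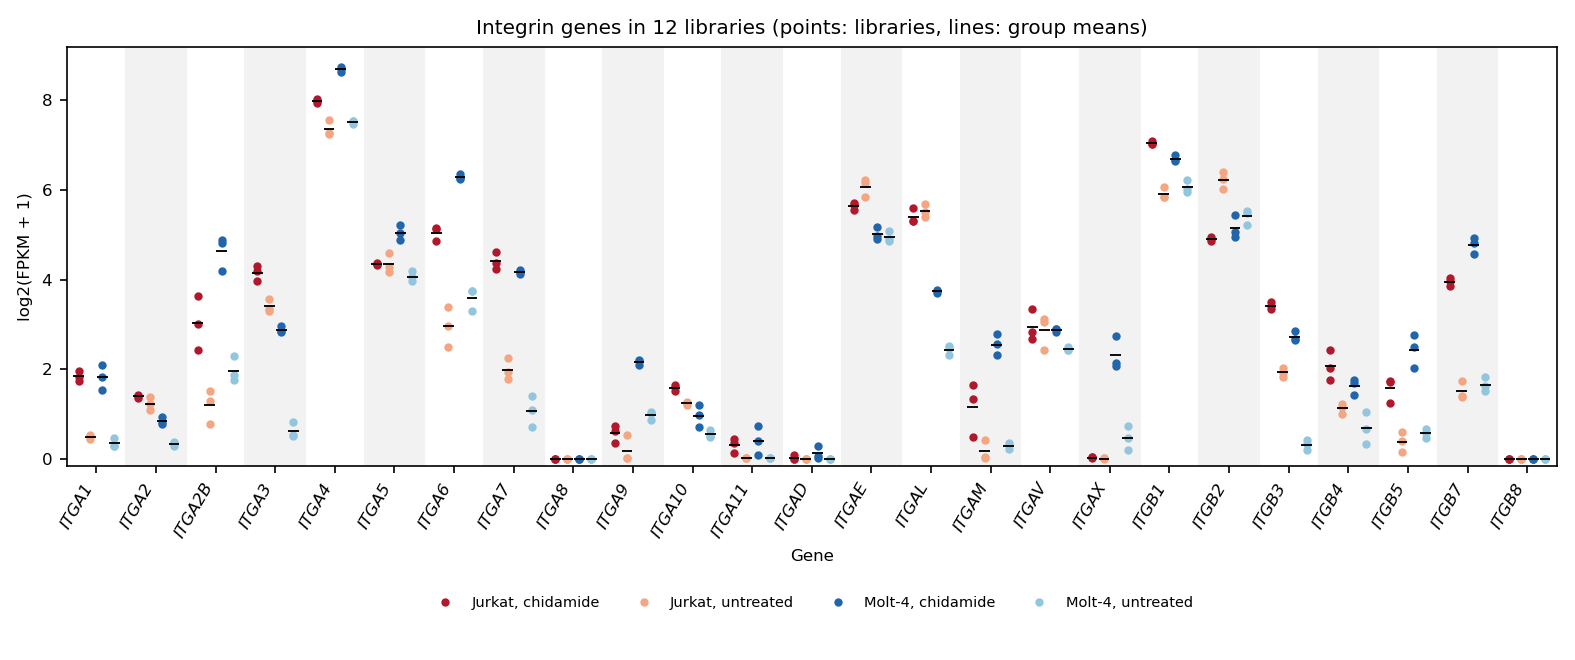
Level of the 25 integrin genes (x axis) in the 12 libraries (y axis, log2(FPKM + 1)); points are libraries, colours the groups with treated before untreated, and black lines the group means of the log2 values. ITGB2 and ITGAE are lower in treated than in untreated Jurkat, and most other detected chains are higher with chidamide in 1 line or both.

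An integrin needs both chains, so known pairs were counted for which the mean of both reached 1 FPKM. Of 23 pairs with both genes in the table (24 are known), 17 met this in treated and 14 in untreated Jurkat, and 17 in treated and 8 in untreated Molt-4. At 5 FPKM the counts were 11 and 6 in Jurkat and 11 and 3 in Molt-4, an alternative chosen after seeing the data. In Molt-4 the pairs at 5 FPKM with chidamide included ITGA4 and ITGAE with ITGB7, ITGA2B and ITGAV with ITGB3, ITGAL with ITGB2, and ITGA3, ITGA4, ITGA5, ITGA6, ITGA7 and ITGAV with ITGB1. Without chidamide, ITGA4, ITGA5 and ITGA6 with ITGB1 were the pairs at that level. The counts say which transcripts were present together in bulk RNA, not which receptors were at the surface, and no test was made of them.

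Tetraspanins that bind ADAM10 were followed with the protease itself. ADAM10 averaged 555 ± 15.2 FPKM in treated and 103 ± 3.31 FPKM in untreated Jurkat, and 278 ± 4.12 FPKM in treated and 124 ± 10.4 FPKM in untreated Molt-4 (SD, n = 3 each). Its log2 change was 2.42 ± 0.057 in Jurkat and 1.17 ± 0.057 in Molt-4 (adjusted p = 3.2e-11 and 7.07e-09), with a difference of -1.26 ± 0.08 (adjusted p = 4.25e-07). The 6 TspanC8 genes together summed to 155, 152 and 152 FPKM in treated and 103, 105 and 110.0 FPKM in untreated Jurkat. In Molt-4 the sum was 121, 120.2 and 119.5 FPKM with chidamide and 100.2, 94.4 and 95.5 FPKM without. The sums of treated libraries were higher in both lines without overlap, and TSPAN14 was the largest part of every one.

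TSPAN14 itself had 66.5, 59.4 and 62.8 FPKM in treated Jurkat, against 37.8, 39.3 and 42.7 FPKM in untreated Jurkat, with no overlap (log2 change 0.64 ± 0.061, adjusted p = 2.71e-06). In Molt-4 this gene had 51.2, 50.8 and 48.6 FPKM in treated Molt-4, against 51.6, 48.3 and 49.4 FPKM in untreated Molt-4 (0.01, adjusted p = 0.865). The difference of -0.63 ± 0.086 was called (adjusted p = 0.000173). TSPAN15, linked to cleavage of N-cadherin by ADAM10, had 6.82, 8.16 and 8.58 FPKM in treated Molt-4, against 1.44, 0.61 and 0.82 FPKM in untreated Molt-4 (log2 change 2.19 ± 0.14, adjusted p = 5.71e-08). In Jurkat, where it stood far higher before treatment, it had 23.9, 26.6 and 25.7 FPKM in treated Jurkat, against 20.7, 20.3 and 19 FPKM in untreated Jurkat. Those groups were separate but the change missed the threshold (0.33, adjusted p = 0.0555). It was called in a fit of Jurkat libraries only (0.00809), on scaling to totals free of 7SL RNA (0.0234) and with quantile normalization (0.0393). The call was also made without untreated Molt-4 replicate 1 (0.0121) or 2 (0.0321), libraries that enter through the shared spread (range over all alternatives 0.00809 to 0.201). The responses differed by 1.86 ± 0.19 (adjusted p = 1.99e-05).

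TSPAN33, known from red blood cell formation in mice, had 21.8, 19 and 18.6 FPKM in treated Molt-4, against 5.94, 6.09 and 6.92 FPKM in untreated Molt-4 (log2 change 1.51 ± 0.089, adjusted p = 3.86e-08). Jurkat libraries held 20.1, 19.9 and 17 FPKM in treated Jurkat, against 17.4, 16.5 and 16.7 FPKM in untreated Jurkat, which overlapped (0.16, adjusted p = 0.154). The responses differed by 1.35 ± 0.13 (adjusted p = 8.73e-06). Beside it, the erythroid marker sum given above was higher in treated than in untreated Molt-4, and its part in this change was not tested. TSPAN5 rose in both lines (0.93 ± 0.079 in Jurkat and 0.71 ± 0.079 in Molt-4), with means of 24.1 ± 0.862 and 12.2 ± 1.14 FPKM in treated and untreated Jurkat and 17.7 ± 0.926 and 10.4 ± 0.547 FPKM in treated and untreated Molt-4 (SD, n = 3 each). Its near relative TSPAN17 was the member called in opposite directions: 17.4, 19 and 21.3 FPKM in treated Jurkat, against 15.5, 15.7 and 16.3 FPKM in untreated Jurkat, and 23.2, 23.6 and 24.2 FPKM in treated Molt-4, against 29.8, 28.9 and 28.2 FPKM in untreated Molt-4. The groups were separate in both lines, the changes were 0.26 ± 0.072 and -0.28 ± 0.072 (adjusted p = 0.00874 and 0.00506), and they differed by -0.54 ± 0.1 (adjusted p = 0.00173). The Jurkat call was lost within the groups compared alone (0.0505, range over all alternatives 0.00255 to 0.0505). TSPAN10, described in pigmented cells, changed by 0.56 in each line at means of at most 2.4 FPKM; with quantile normalization the call was lost in Jurkat (0.678, range over all alternatives 0.000559 to 0.678) and the change was -0.17 in Molt-4.

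The make-up of the TspanC8 sum also differed in Molt-4, where TSPAN17 took 19.2, 19.7 and 20.3% with chidamide and 29.7, 30.6 and 29.6% without. TSPAN33 took 18.1, 15.8 and 15.5% in treated and 5.93, 6.45 and 7.24% in untreated Molt-4, and TSPAN15 5.64, 6.79 and 7.18% and 1.44, 0.646 and 0.858%. None of these shares overlapped between treated and untreated Molt-4. In Jurkat TSPAN5 took 15.6, 16.4 and 15.2% with chidamide and 10.8, 11.4 and 12.2% without, and TSPAN33 13, 13.1 and 11.2% and 16.8, 15.7 and 15.2%.

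**Figure D4:**
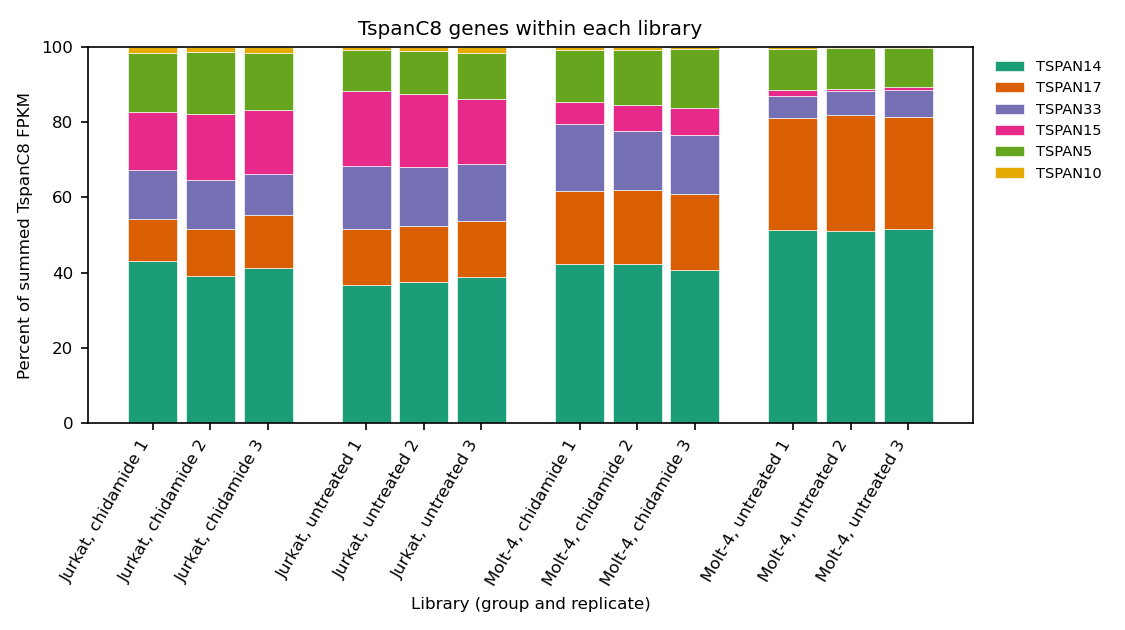
Share of each TspanC8 gene in their summed FPKM (y axis, percent) in each library (x axis), treated before untreated within each line. TSPAN14 is the largest part everywhere, and in Molt-4 TSPAN17 is 19.2% to 20.3% with chidamide and 29.6% to 30.6% without.

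Outside this subgroup, TSPAN13 had the largest Jurkat rise of the tetraspanins, with 38.7, 39.4 and 35.8 FPKM in treated Jurkat, against 7.1, 8.51 and 7.01 FPKM in untreated Jurkat (log2 change 2.19 ± 0.1, adjusted p = 6.71e-09). Molt-4 libraries held 27.2, 25 and 21.7 FPKM in treated Molt-4, against 8.09, 8.98 and 7.42 FPKM in untreated Molt-4 (log2 change 1.48 ± 0.1, adjusted p = 1.31e-07). Groups were separate in both lines, and the response was larger in Jurkat (difference -0.71 ± 0.14, adjusted p = 0.00254). TSPAN18, studied in endothelial cells as a partner of the calcium channel Orai1, had 11.6, 12.3 and 14.1 FPKM in treated Molt-4, against 0.47, 0.32 and 1.04 FPKM in untreated Molt-4 (log2 change 3.11 ± 0.15, adjusted p = 7.86e-09). In Jurkat it had 1.43, 1.26 and 0.91 FPKM in treated Jurkat, against 0.01, 0.03 and 0.07 FPKM in untreated Jurkat (log2 change 1.08 ± 0.15, adjusted p = 7.94e-05). The difference of 2.03 (adjusted p = 2.56e-05) was the largest of any member, and it was not called with a pseudocount of 0.1 (0.118, range over all alternatives 5.71e-06 to 0.118). TSPAN18 lies next to CD82, another tetraspanin, and overlaps TP53I11.

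TSPAN7, the highest tetraspanin, had 262, 261 and 262 FPKM in treated Jurkat, against 200.0, 189 and 196 FPKM in untreated Jurkat (log2 change 0.43 ± 0.043, adjusted p = 4.58e-06). In Molt-4 it had 166, 161 and 163 FPKM in treated Molt-4, against 77.2, 72.9 and 71.6 FPKM in untreated Molt-4 (log2 change 1.14 ± 0.043, adjusted p = 9.43e-10). The 3 libraries of each group were close to each other and the groups far apart, with a larger response in Molt-4 (0.71 ± 0.061, adjusted p = 4.54e-06). TSPAN3 was the only gene named TSPAN that fell in Jurkat, with 41.9, 50.5 and 45.8 FPKM in treated Jurkat, against 53.4, 64.7 and 53.4 FPKM in untreated Jurkat (log2 change -0.30 ± 0.097, adjusted p = 0.0189). The groups were separate, but the call was lost without treated Jurkat replicate 1 (0.0821) or untreated Jurkat replicate 2 (0.0838), on quantile scaling (0.0966), on scaling to totals free of 7SL RNA (0.0741) and in a fit of Jurkat libraries only (0.057; range over all alternatives 0.0125 to 0.0966). In Molt-4 the values were 67.1, 58.3 and 62.6 FPKM in treated Molt-4, against 73.1, 61.7 and 63 FPKM in untreated Molt-4, which overlapped (adjusted p = 0.556).

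TSPAN2, known from myelinating cells in rodents, had 23.6, 19.6 and 22.8 FPKM in treated Jurkat, against 7.45, 7.07 and 12.3 FPKM in untreated Jurkat (log2 change 1.25 ± 0.18, adjusted p = 7.43e-05). In Molt-4 this gene had 7.78, 8.03 and 9.17 FPKM in treated Molt-4, against 2.14, 3.22 and 2.68 FPKM in untreated Molt-4 (log2 change 1.35 ± 0.18, adjusted p = 3.37e-05). The groups did not overlap in either line. TSPAN9, described in platelets, had 7.67, 7.47 and 6.16 FPKM in treated Jurkat, against 1.61, 2.42 and 2.59 FPKM in untreated Jurkat, and 3.13, 2.9 and 2.98 FPKM in treated Molt-4, against 0.46, 0.42 and 0.33 FPKM in untreated Molt-4. It rose in both lines (1.35 ± 0.13 in Jurkat and 1.51 ± 0.13 in Molt-4; adjusted p = 2.4e-06 and 7.05e-07). TSPAN4, a marker of migrasomes, the membrane bodies left behind by moving cells, had 15.8, 16.4 and 17.1 FPKM in treated Molt-4, against 7.27, 5.72 and 7.51 FPKM in untreated Molt-4 (log2 change 1.16 ± 0.099, adjusted p = 8.77e-07). In Jurkat the values were 28.3, 24.4 and 27.1 FPKM in treated Jurkat, against 19.5, 21.2 and 22.6 FPKM in untreated Jurkat, a change of 0.32 (adjusted p = 0.0156) that lost its call without treated (0.0631) or untreated (0.0629) Jurkat replicate 1 (range over all alternatives 0.00384 to 0.0631). The responses differed by 0.84 ± 0.14 (adjusted p = 0.000694).

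TSPAN12, a co-receptor for norrin with FZD4, had 2.81, 3.62 and 2.81 FPKM in treated Molt-4, against 0.63, 0.41 and 0.62 FPKM in untreated Molt-4 (log2 change 1.39 ± 0.1, adjusted p = 2.91e-07). In Jurkat it stayed under 1 FPKM, with 0.69, 0.65 and 0.74 FPKM in treated and 0.13, 0.08 and 0.02 FPKM in untreated libraries (log2 change 0.65 ± 0.1). The Jurkat call was lost with quantile normalization (0.318, range over all alternatives 1.85e-05 to 0.318) and the difference of 0.74 (adjusted p = 0.00244) with a pseudocount of 0.1 (0.893, range over all alternatives 0.00192 to 0.893). TSPAN1, known from epithelia, had 1.17, 1.26 and 1.31 FPKM in treated Molt-4, against 0.1, 0 and 0.04 FPKM in untreated Molt-4 (log2 change 1.10 ± 0.27, adjusted p = 0.0039). With quantile normalization it was 0.43 and not called (0.143, range over all alternatives 3.02e-05 to 0.143). Epithelial markers moved beside it in Molt-4, as given above, and their part was not tested; TSPAN1 overlaps POMGNT1. Jurkat libraries held 1.1, 0 and 0.28 FPKM in treated Jurkat, against 0.97, 1.63 and 0.24 FPKM in untreated Jurkat, which overlapped, and the change of -0.42 (adjusted p = 0.212) was called without treated Jurkat replicate 1 (0.0304) or untreated Jurkat replicate 3 (0.0288) or with quantile normalization (0.0114; range over all alternatives 0.0114 to 0.637). TSPAN31 rose by 0.65 in Jurkat and 0.62 in Molt-4 (adjusted p = 0.0095 and 0.0116), the first not called with quantile normalization (0.0624, range over all alternatives 0.00267 to 0.0624); it overlaps CDK4. TSPAN32 was at 2.74 ± 0.291 and 2.61 ± 0.46 FPKM in treated and untreated Molt-4 (SD, n = 3 each) and passed in neither line. Its Molt-4 change of 0.05 (adjusted p = 0.772) became -0.59 with quantile normalization and was then called (0.004, range over all alternatives 0.004 to 0.998). TSPAN6, TSPAN8, TSPAN11, TSPAN16 and TSPAN19 were not tested; the highest value among the untested members was 1.15 FPKM, of TSPAN19 in treated Jurkat replicate 1.

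**Figure D5:**
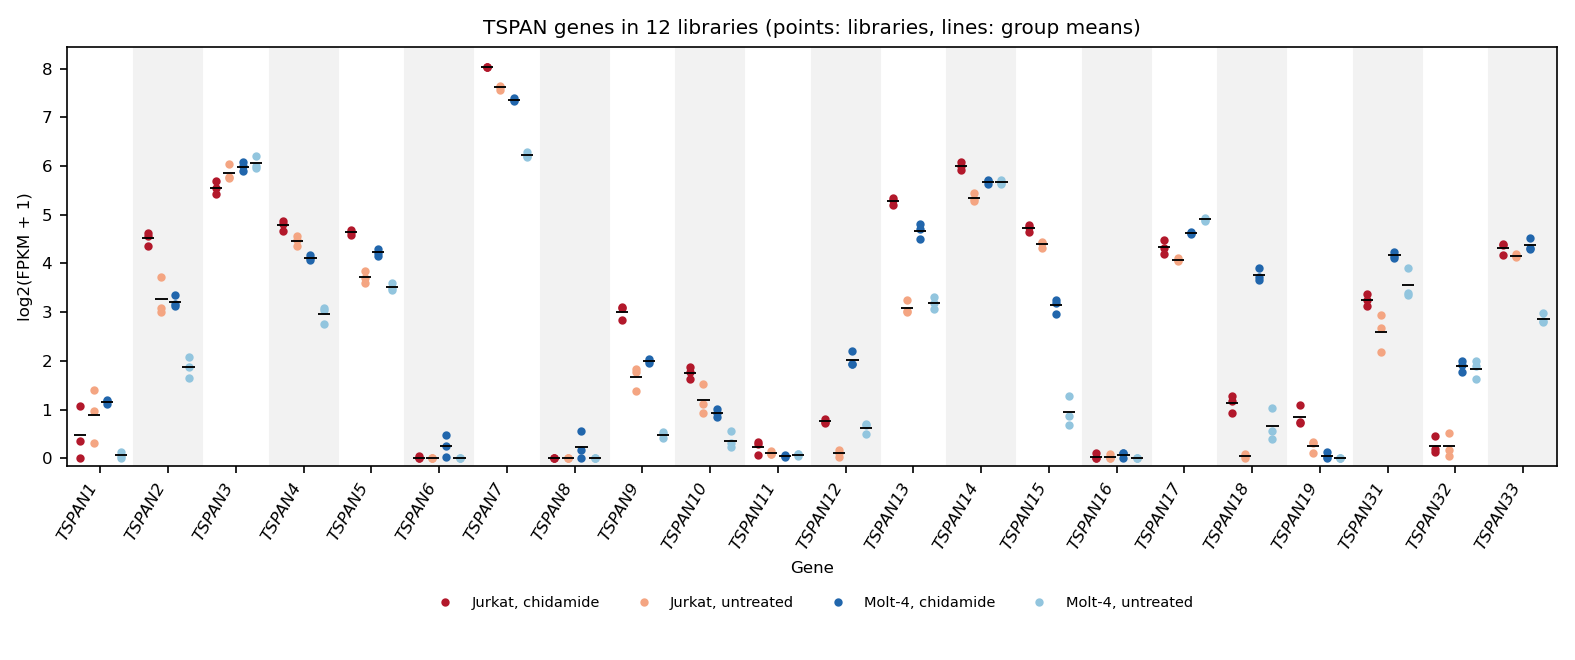
Level of the 22 TSPAN genes (x axis) in the 12 libraries (y axis, log2(FPKM + 1)); points are libraries, colours the groups with treated before untreated, and black lines the group means of the log2 values. TSPAN7 is the highest in every group, and TSPAN13, TSPAN15 and TSPAN18 are among those with wide gaps between treated and untreated libraries of at least 1 line.

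Tetraspanins with other names were counted beside the TSPAN genes. Of 11 listed, 8 were tested: 3 rose and 1 fell in Jurkat, and 6 rose and 1 fell in Molt-4. Over all genes tested, 30.9% rose and 25.4% fell in Jurkat, and 35.4% and 24.6% in Molt-4. The median log2 changes of the 8 were 0.31 and 0.81 (all genes 0.04 and 0.08). CD9, a partner of integrins on many cells, averaged 3.84 ± 0.807 FPKM in treated and 0.617 ± 0.15 FPKM in untreated Jurkat, and 47.8 ± 2.74 FPKM in treated and 10.8 ± 0.962 FPKM in untreated Molt-4 (SD, n = 3 each). It rose by 1.57 ± 0.13 in Jurkat and 2.05 ± 0.13 in Molt-4, and the difference of 0.47 (adjusted p = 0.0645) was called without treated Jurkat replicate 1 (0.0477, range over all alternatives 0.0012 to 0.374). CD82 rose by 0.42 and 1.34 and CD53, a tetraspanin of blood cells, by 0.42 and 1.10 in Jurkat and Molt-4. CD81, a partner of immunoglobulin-family proteins, fell by 0.64 on the log2 scale in Jurkat (adjusted p = 8.63e-07); in Molt-4 it changed by -0.13 (adjusted p = 0.0564), which was called without untreated Jurkat replicate 1, 2 or 3 (0.0382, 0.0427 and 0.0441; range over all alternatives 0.0164 to 0.531). CD37, a lymphocyte tetraspanin, rose in Molt-4 by 1.31 (adjusted p = 0.00176), and in Jurkat its change of 0.63 (adjusted p = 0.0792) was called without untreated Molt-4 replicate 1 (0.00334, range over all alternatives 0.00334 to 0.856).

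Genes that act with the members inside and outside the cell were counted in 3 further lists. Of 26 tested activators and adaptors of integrins, 15 rose and 6 fell in Jurkat (median 0.41) and 17 rose and 5 fell in Molt-4 (median 0.54). Over all genes tested, 30.9% rose and 25.4% fell in Jurkat, and 35.4% and 24.6% in Molt-4. VCL, the talin-binding protein vinculin, rose by 2.00 ± 0.089 in Jurkat and 1.21 ± 0.089 in Molt-4. TLN2, a talin, rose by 1.60 ± 0.24 in Jurkat, RAP1B, a small GTPase that activates integrins, by 1.53 ± 0.052 and PXN, the adaptor paxillin, by 1.24 ± 0.13. Their means in treated and untreated Molt-4 were 1.98 and 0.94 FPKM, 391 and 175 FPKM, and 23.8 and 11.1 FPKM, with no overlap between groups. In Molt-4 FERMT2, a kindlin, rose by 1.75 ± 0.083 and TNS1, a tensin, by 1.46 ± 0.15, whereas LIMS2, part of the complex of integrin-linked kinase, changed by -1.79 ± 0.13. RASGRP2, which switches RAP1 on, changed by -1.08 ± 0.088 in Jurkat and 1.14 ± 0.088 in Molt-4, and was named after its values were seen.

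Of 11 tested ligands, 4 rose and 4 fell in Jurkat (median 0.00) and 7 rose and 0 fell in Molt-4 (median 0.50). Over all genes tested, 30.9% rose and 25.4% fell in Jurkat, and 35.4% and 24.6% in Molt-4. FN1, fibronectin, rose by 2.02 ± 0.19 in Jurkat and 1.86 ± 0.19 in Molt-4, and SPP1, osteopontin, by 0.96 ± 0.16 and 2.53 ± 0.16, being listed at 0 in untreated Jurkat. THBS1, thrombospondin, rose by 1.03 ± 0.21 in Molt-4 and by 0.70 ± 0.21 in Jurkat, and the Jurkat call was lost without treated Jurkat replicate 1 (0.0559, range over all alternatives 0.0011 to 0.368). Quantile normalization ended both calls, at 0.35 in Molt-4 (0.169, range over all alternatives 3.11e-05 to 0.169) and 0.24 in Jurkat. ICAM3, a ligand of LFA-1, changed by -0.70 ± 0.089 in Jurkat. CDH1, E-cadherin and the ligand of ITGAE with ITGB7, averaged 22.3 ± 0.486 FPKM in treated and 1.43 ± 0.839 FPKM in untreated Molt-4 (SD, n = 3 each) and at most 0.0167 FPKM in a Jurkat group; it is also on the list of epithelial markers. Of 9 partner proteins of tetraspanins, 4 rose and 0 fell in Jurkat (median 0.18) and 7 rose and 1 fell in Molt-4 (median 0.44). The shares of all genes are those given beside the ligands. IGSF3, an immunoglobulin-family partner of tetraspanins, rose by 2.77 ± 0.091 in Jurkat and 2.38 ± 0.091 in Molt-4, and IGSF8, a partner of CD9 and CD81, by 0.34 ± 0.056 in Jurkat. IGSF8 averaged 19.0 ± 0.676 FPKM in treated and 13.7 ± 0.267 FPKM in untreated Molt-4 (SD, n = 3 each). IFITM1, an interferon-induced partner of CD81, rose by 0.37 ± 0.061 in Jurkat and changed by -1.91 ± 0.061 in Molt-4. CR2, a complement receptor joined to CD81, rose by 1.77 ± 0.12 in Molt-4.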

How the data were processed

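Bulk RNA of 12 libraries was sequenced. The deposited values are FPKM per gene symbol, made by the authors; per the submitters' processing notes they used STAR, HTSeq and DESeq2 with the build hg19, versions not given in the sources used here. The use of strand in counting is not stated. Whether low values are whole multiples of 1 read was checked: 31.0% of 104867 values lay within 0.15 of one with estimated steps, where an even spread gives 30%, so reads were not recovered.

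Values were transformed to log2(deposited FPKM + 1). Genes with at least 1 FPKM in at least 3 of 12 libraries were fitted with limma 3.58.1 in R 4.3.3 (lmFit and eBayes with trend, 1 mean per group, 8 residual degrees of freedom), with two-sided p-values adjusted by Benjamini-Hochberg over all 13840 genes. The code was tested on simulated data. Python 3.11.15 made tables and figures. Alternatives were a pseudocount of 0.1, no filter, at least 5 FPKM, median-of-ratios, quantile and 7SL-free scaling, the groups compared alone, robust moderation, a replicate block and leaving out each library.

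Members and gene lists (other tetraspanins, integrin activators and adaptors, integrin ligands, tetraspanin partners and cell type markers) were chosen with earlier results of these data known. Values in every library are given for members called with an absolute log2 change of at least 1 in a treatment comparison and for the 3 highest of each family in each untreated line; of each list, up to 4 called genes with the largest change in each line are named, and ADAM10 always. TLN1 and COL3A1 were not analysed here.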

Additional observations from a re-analysis of the deposited data

Results flagged for a closer look

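The response to chidamide differed between the lines for 22 members, by the test of the difference itself (Molt-4 minus Jurkat, log2(FPKM + 1) scale, adjusted p under 0.05 in limma over all genes). Values are in brackets. Integrins whose change was more positive in Molt-4 were ITGAX (1.82), ITGA3 (1.52), ITGAL (1.43), ITGAM (1.28), ITGB2 (1.06), ITGA5 (0.97), ITGB3 (0.93), ITGA9 (0.80), ITGB7 (0.68), ITGA4 (0.55) and ITGAE (0.49). Tetraspanins of the same kind were TSPAN18 (2.03), TSPAN15 (1.86), TSPAN1 (1.52), TSPAN33 (1.35), TSPAN4 (0.84), TSPAN12 (0.74) and TSPAN7 (0.71). The change was more positive in Jurkat for TSPAN13 (-0.71), TSPAN14 (-0.63), TSPAN17 (-0.54) and ITGB1 (-0.50). With a pseudocount of 0.1 the differences of ITGA9, ITGAM, ITGB7, TSPAN12 and TSPAN18 were not called. For ITGB2 and ITGAE the positive difference goes with a fall in Jurkat, and for TSPAN17 the negative one with a rise in Jurkat and a fall in Molt-4. Groups of 3 libraries are too small for the search for single outlying libraries, and none was made.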

How the results depend on the processing

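Counts of called members held within 1.5 times of the main count in most settings. In Molt-4, 20 were higher with FPKM of at least 5 in 3 libraries, where fewer members are tested, and 3 were lower with quantile normalization. Between untreated lines 6 were higher with FPKM of at least 5. On leaving out 1 library, counts of higher and lower members ran from 24 to 26 and 2 to 4 in Jurkat, 29 to 32 and 1 to 2 in Molt-4, 16 to 20 and 4 to 5 for the difference of responses, and 8 to 10 and 16 to 18 between untreated lines; where this leaves 2 libraries in a group, the spread is shared with the other groups. In Molt-4 the 2 lower members occurred without treated replicate 3. Without any 1 of the treated Molt-4 libraries, 36 members were tested instead of 38, and the count of 29 higher in Molt-4 occurred there. ITGAX and TSPAN12 reached 1 FPKM only in the 3 treated Molt-4 libraries and so left the test.

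With quantile normalization the change turned to -0.20 for ITGA2, -0.30 for ITGA10 (called lower, 0.0421), -0.17 for TSPAN10, -0.045 for TLN2 and -0.23 for PTGFRN in Molt-4, and to -0.041 for ITGA9 and -0.14 for ITGA10 in Jurkat. Among members whose small rise was not called, it gave called changes of -0.59 for TSPAN32 in Molt-4 (0.004) and -0.32 for ITGA2 in Jurkat (0.00737). With a pseudocount of 0.1 the difference of responses turned to 1.25 for SKAP1 and -0.17 for TNS1. The causes were not tested. Calls held in every alternative that tested the gene for 19 of 29 called members in Jurkat and 27 of 32 in Molt-4. The same was true of 16 of 22 for the difference and 22 of 28 between lines. With FPKM of at least 5 in 3 libraries only 26 members were tested, so low members have no result there. Ranges over all alternatives are likewise over those that tested the gene. Deviations of same-numbered libraries from their group means had correlations of -0.0858 to 0.0408 over all genes tested. With 3 libraries a group, these cannot decide whether the numbers mark a shared batch. With a replicate block, 25 members were higher and 3 lower in Jurkat, 31 and 1 in Molt-4, 19 and 4 for the difference, and 10 and 17 between lines. The difference of responses could not be fitted within the groups compared alone. Depth is unknown, which limits what can be said of members under 1 FPKM.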
